A study of Mus musculus with 6 samples.

Results

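The genes described here are 10 genes of cellular iron and heme handling, chosen by name: Tfrc, Slc11a1 and Slc11a2 of iron uptake and transport, Fth1, Ftl1 and Ncoa4 of iron storage and its release, the iron sensor Ireb2, the heme synthesis enzymes Alas1 and Fech, and the heme-degrading enzyme Hmox1. Each had 1 row among the 53733 named rows of the count table. RNA came from a mouse acute myeloid leukaemia line, derived from foetal liver cells that carry a pair of retroviral vectors. MSCV-Luc2-IRES-MLL-AF9 keeps the fusion oncogene on at all times, and TRE-tight-DsRED-IRES-FLT3-ITD makes FLT3-ITD, a mutant FLT3 receptor with constant signalling, only while doxycycline is given. Recipients were NSG mice, an immunodeficient strain, of an age not stated; they were injected intravenously and had doxycycline for 96 h. For the final 48 h, mice stayed on doxycycline (ON, 3 libraries) or were given regular food and water (OFF, 3 libraries). Both groups thus carried MLL-AF9 and had received doxycycline during engraftment. Viable leukaemic cells were sorted from marrow, and their mRNAs were counted by 3' end sequencing. All mice received the same line, whose clonality is not stated. With each library taken as 1 mouse, p-values measure the spread between mice and not between leukaemias. The comparison of OFF with ON asks which transcripts change in the animal once doxycycline, and with it FLT3-ITD, is withdrawn. No group received the drug without the FLT3-ITD vector, so effects of doxycycline itself and of FLT3-ITD cannot be told apart.

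Cells take up transferrin-bound iron through the transferrin receptor, move it out of endosomes through SLC11 family transporters, and store what is not used inside ferritin, a shell of heavy (FTH1) and light (FTL) chains. NCOA4 carries ferritin to the lysosome, where its iron is freed. Iron-regulatory proteins, among them IREB2, bind stem-loops called iron-responsive elements when iron is scarce: an element in the 5' untranslated region (UTR) blocks translation, and elements in the 3' UTR protect the mRNA from decay. Myeloid cells need heme for myeloperoxidase and the phagocyte oxidase as well as for respiration. ALAS1 catalyses the first and usually rate-limiting step of its synthesis in most cells, and FECH inserts iron in the last.

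The iron-responsive elements of the members are shown because they set apart the genes whose mRNA stability or translation is known to follow iron. They were searched on the transcript strand of GENCODE M21 coding transcripts as the loop CAGTGN, with an unpaired C 5 bases upstream of it and with the 5 bases before the loop pairing with the 5 after it, G-U pairs allowed. The capitals mark the loop, and coordinates are GRCm38.
Tfrc 3' UTR, chr16:32631219-32631248, plus strand: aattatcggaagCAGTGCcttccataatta
Tfrc 3' UTR, chr16:32631598-32631627, plus strand: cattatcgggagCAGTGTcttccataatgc
Tfrc 3' UTR, chr16:32631663-32631692, plus strand: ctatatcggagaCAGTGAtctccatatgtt
Tfrc 3' UTR, chr16:32631710-32631739, plus strand: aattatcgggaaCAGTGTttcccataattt
Fth1 5' UTR, chr19:9982732-9982761, plus strand: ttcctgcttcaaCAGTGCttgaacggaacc
Ftl1 5' UTR, chr7:45459778-45459807, minus strand: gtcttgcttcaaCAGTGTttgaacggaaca
Slc11a2 3' UTR, chr15:100395152-100395181, minus strand: agccatcagagcCAGTGTgtttctatggtt
Tfrc held 4 exact matches, and Fth1 and Ftl1 held 1 each. The Slc11a2 match appeared only when 1 unpaired base was allowed in the second arm of the stem. Of 21875 protein-coding genes, 0.128% had an exact match in a 5' UTR and 0.581% in a 3' UTR, and with 1 unpaired base 1.07% had one in a 3' UTR. In coding regions 0.631% had an exact match. Among genes of the lists below, exact matches also lay in the 3' UTR of Bola3 and the coding region of Keap1. Matches with 1 unpaired base lay in Atg7, Bach1 and Pcbp2, among others. The other 6 members had no match in either form, which says only that these letters are not in their annotated transcripts. A match is a description of sequence and not a measurement of binding.

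After withdrawal of doxycycline, Tfrc and Slc11a2 were lower, while both heme synthesis enzymes, the ferritin receptor Ncoa4 and the ferritin light chain were higher. The call of Slc11a2 was lost in 7 of 14 other settings. A link of these changes to iron-responsive elements was not tested. Of the 10 members, 9 had enough counts to be tested, and 6 of these passed an adjusted p of 0.05 in edgeR's quasi-likelihood test, 4 higher and 2 lower in OFF. Among all 13652 tested rows 34.8% passed, 17.3% higher and 17.5% lower. The members' median log2 fold change (OFF minus ON) was 0.16, against 0.00 for all tested rows, and their median absolute change was 0.47 against 0.33. The members were chosen with earlier results of these data known, so these shares and medians only describe them. In the same 6 members all OFF values lay on 1 side of all ON values, as was the case in 48.3% of all tested rows. An exact permutation of 3 against 3 libraries cannot give a two-sided p below 0.1 for a single gene, so the adjusted p of the model fitted across all rows is given. Changes are per unit of sequenced RNA from sorted cells, in which fewer cells of a type and less RNA per cell cannot be told apart.

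**Figure D1:**
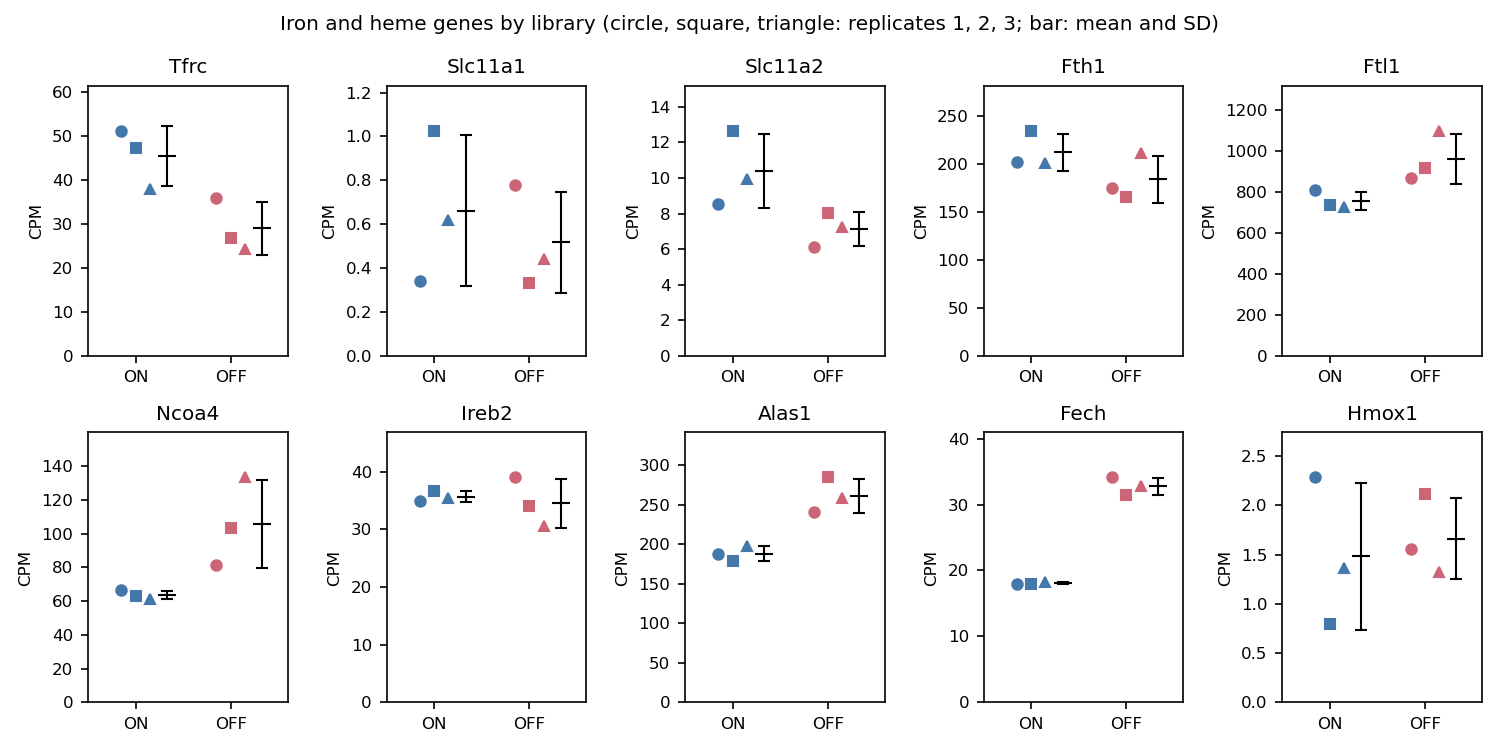
Level of each of the 10 genes in CPM (library-scaled counts; vertical axis from 0, a scale of its own in each panel) in the 3 ON (blue) and 3 OFF (red) libraries, with the mean and SD of each group in black. Tfrc and Slc11a2 were lower and Ftl1, Ncoa4, Alas1 and Fech higher in every OFF library than in any ON library, whereas the groups overlap for Slc11a1, Fth1, Ireb2 and Hmox1.

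Libraries held between 8347588 and 9329917 counts, and 1 count was worth at most 0.124 CPM after scaling. A first principal component of log2 CPM held 67.6% of the variance and parted the groups. A second, with 13.6%, scored OFF replicate 3 at -29.3, against 23.9 and 14.4 for OFF replicates 1 and 2. Ribosomal RNA locus rows took between 10.1% and 17.96% of counts. The Flt3 row held 46 to 83 counts per library and overlapped between the groups (log2 fold change 0.27, adjusted p = 0.387); a 3' end row of the mouse gene need not count the vector transcript, so it does not check the withdrawal. Among myeloid markers, named after their values were seen, Mpo stood at 290 to 320 CPM in ON and 659 to 933 CPM in OFF, and Ptprc at 111 to 126 CPM and 178 to 198 CPM. Globin rows, markers of red cells, were higher in OFF (575 to 929 CPM summed over 4 rows) than in ON (149 to 210 CPM).

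Tfrc (chr16:32608920-32632794, plus strand), the receptor that imports transferrin-bound iron, fell 1.57-fold. Its level was 51.2, 47.3 and 38.0 CPM in ON replicates 1 to 3 and 35.9, 26.8 and 24.4 CPM in OFF replicates 1 to 3. The groups did not overlap, but the highest OFF library and the lowest ON library were close. The log2 fold change was -0.65 (SE 0.15, 95% interval -0.98 to -0.32, adjusted p = 0.00466 by edgeR, lower in 3 of 3 OFF libraries). In the authors' deposited log2 table, tested with limma, the change was -0.62 with an adjusted p of 0.0504.

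Slc11a2 (chr15:100387898-100425072, minus strand), the divalent metal transporter that passes iron out of endosomes, was also lower. ON libraries stood at 8.57, 12.6 and 9.92 CPM and OFF libraries at 6.11, 8.02 and 7.26 CPM. All 3 OFF values lay below the lowest ON value, with ON replicate 2 the highest of the 6. The gene fell 1.46-fold (log2 fold change -0.54, SE 0.19, 95% interval -0.96 to -0.13, adjusted p = 0.0415 by edgeR). This call was lost in 7 of 14 other settings, among them DESeq2 (adjusted p = 0.114), without ON replicate 2 (0.233) or 3 (0.0828), and without OFF replicate 1 (0.0917) or 2 (0.0595). Slc11a2 is known to be made with alternative 3' ends, of which 1 carries the element printed above, and the row counts them together. Exons of Gm5475 overlap Slc11a2 on the other strand, 35064 bases from its 3' end.

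Slc11a1 (chr1:74375195-74386062, plus strand), the related transporter of phagosome membranes in mature macrophages and neutrophils, was close to undetected. It had 3, 9 and 5 counts in ON and 7, 3 and 4 counts in OFF, which left it below the filter on low counts. The groups overlapped, and no difference was detectable at this depth.

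Of the 2 ferritin chains, the light chain passed the test and the heavy chain did not. Fth1 (chr19:9980598-9985098, plus strand), the heavy chain that oxidises iron for storage, was at 202, 234 and 200.5 CPM in the ON libraries, against 175, 165 and 211 CPM in OFF. OFF replicate 3 lay within the ON range and the other OFF libraries below it. Its log2 fold change was -0.21 (SE 0.12, 95% interval -0.46 to 0.04, adjusted p = 0.188 by edgeR), which did not pass. Without OFF replicate 3 it was -0.31 and passed (adjusted p = 0.0102), whereas it was -0.13 without ON replicate 2 (0.537) and -0.14 without OFF replicate 2 (0.473).

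Ftl1 (chr7:45457944-45459884, minus strand), the light chain that helps form the iron core, rose 1.27-fold. It gave 809, 737 and 726 CPM in ON, against 870, 918 and 1099 CPM in OFF. Every OFF library was above every ON library, with OFF replicate 3 the highest. The log2 fold change was 0.35 (SE 0.11, 95% interval 0.12 to 0.58, adjusted p = 0.0214 by edgeR), which no longer passed without ON replicate 2 (adjusted p = 0.106) or ON replicate 3 (0.111). The Ftl1 row is uncertain, since near-identical copies share its sequence: 64.0% of the 50-base words in the last 400 bases of its coding transcripts also occur in Ftl1-ps1. The Ftl1-ps1 row held 0.902 to 0.935 times as many counts as the Ftl1 row in each library. The small RNA gene Gm22133 also overlaps an exon of Ftl1 on the same strand, and its row held 497 to 844 counts. With 5 copies added to the Ftl1 row, an alternative chosen after seeing the data, the log2 fold change was 0.34 (adjusted p = 0.0233 by edgeR).

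Within a library, Ftl1 counts were 4.01, 3.14 and 3.62 times those of Fth1 in ON and 4.97, 5.55 and 5.21 times in OFF. The lowest OFF ratio exceeded the highest ON ratio. The means were 3.59 ± 0.43 and 5.24 ± 0.29 (SD, n = 3 in each group), and an exact two-sided permutation test gave p = 0.1, the smallest value this design allows. The size of the ratio itself depends on priming near each 3' end and is not a ratio of molecules. Tfrc counts were 0.253, 0.202 and 0.189 times those of Fth1 in ON and 0.205, 0.162 and 0.116 times in OFF. Here the groups overlapped (exact two-sided permutation p = 0.3). Of 4 ratios computed, counting Alas1 to Fech and Ftl1-ps1 to Ftl1, none could pass after adjustment.

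**Figure D2:**
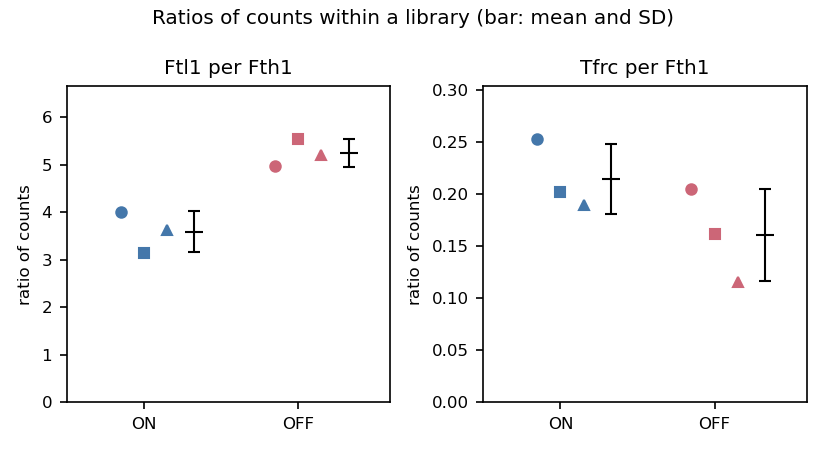
Ratio of Ftl1 to Fth1 counts (left) and of Tfrc to Fth1 counts (right) in each of the 3 ON and 3 OFF libraries, with mean and SD; both axes start at 0. The Ftl1 ratio was 3.14 to 4.01 in ON and 4.97 to 5.55 in OFF, while the Tfrc ratios overlap.

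Ncoa4 (chr14:32159865-32179855, plus strand), the receptor that delivers ferritin to lysosomes, rose 1.66-fold. The ON libraries were tightly grouped at 66.5, 63.2 and 61.4 CPM, and the OFF libraries stood at 81.1, 103 and 133 CPM. All OFF values were higher, and they were more spread (SD 26.2 against 2.57 CPM). The log2 fold change was 0.73 (SE 0.15, 95% interval 0.41 to 1.06, adjusted p = 0.00208 by edgeR). A copy, Gm6768, shares 47.6% of the 50-base words near its 3' end but held only 13 to 30 counts per library.

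Ireb2 (chr9:54863789-54912530, plus strand), an iron-regulatory protein that is itself controlled mainly by degradation of the protein, was measured at 34.8, 36.7 and 35.5 CPM in ON. In OFF it was at 39.0, 34.0 and 30.6 CPM. The OFF values spanned the ON values on both sides. The log2 fold change was -0.05 (SE 0.12; adjusted p = 0.795 in edgeR), with a 95% interval of -0.30 to 0.21, and it was 0.04 without OFF replicate 3.

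The enzymes at both ends of heme synthesis rose. Alas1 (chr9:106233455-106248654, minus strand), which makes aminolevulinate, gave 188, 178 and 198 CPM in ON, against 241, 284 and 258 CPM in OFF. The groups were well apart, and the gene rose 1.39-fold (log2 fold change 0.47, SE 0.10, 95% interval 0.25 to 0.70, adjusted p = 0.0028 by edgeR). Fech (chr18:64452914-64490251, minus strand), the ferrochelatase, varied little within each group: 157, 158 and 147 counts (17.9 to 18.2 CPM) in ON and 307, 283 and 298 counts (31.5 to 34.1 CPM) in OFF. It rose 1.82-fold (log2 fold change 0.86, SE 0.12, 95% interval 0.61 to 1.11, adjusted p = 7.21e-05 by edgeR), the largest change among the tested members. The antisense gene 4930500F10Rik overlaps Alas1 exons 14505 bases from the 3' end. Alas1, Fech and Ncoa4 passed in the same direction in all 15 other settings. Alas1 counts were 10.5, 9.92 and 10.9 times those of Fech in ON and 7.07, 9.02 and 7.87 times in OFF, with every OFF ratio below every ON ratio (exact two-sided permutation p = 0.1).

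Hmox1 (chr8:75093621-75100589, plus strand), the inducible heme oxygenase, was low in both groups. It had 20, 7 and 11 counts in ON and 14, 19 and 12 counts in OFF, or 2.28, 0.797 and 1.36 CPM against 1.55, 2.12 and 1.32 CPM. The groups overlapped fully. The log2 fold change of 0.16 (SE 0.41; adjusted p = 0.791 in edgeR) has a 95% interval of -0.70 to 1.03, and no difference was detectable at this depth. It was 0.62 without ON replicate 1 and -0.14 without ON replicate 2.

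**Figure D3:**
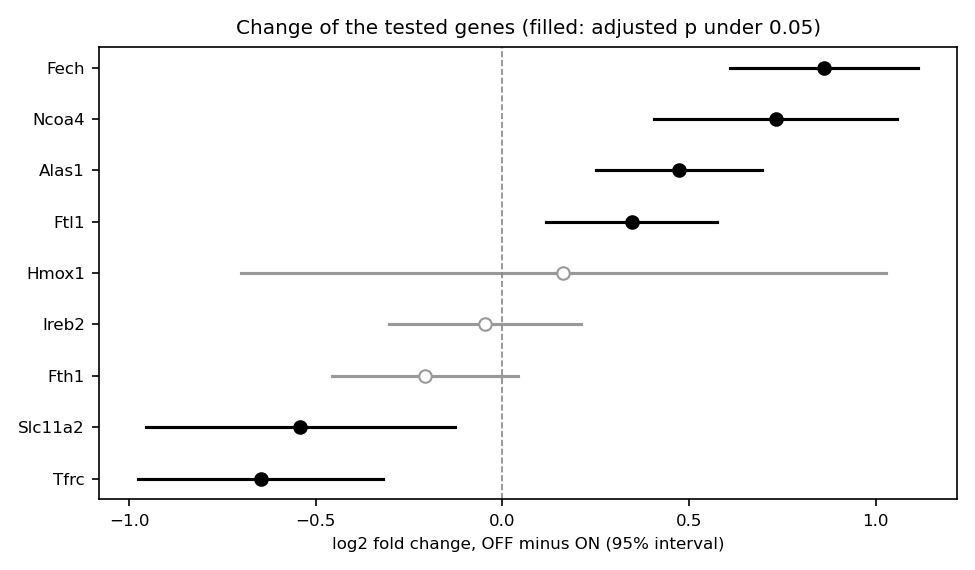
Log2 fold change (OFF minus ON, horizontal axis) of the 9 tested genes with 95% intervals, filled black where the adjusted p was under 0.05 and open grey otherwise. Tfrc and Slc11a2 lie below 0 and Ftl1, Alas1, Ncoa4 and Fech above it, and the interval of Hmox1 is the widest.

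Red cell transcripts were also higher in OFF. All 4 globin rows rose, by log2 values of 2.02 to 2.30, with Hbb-bs at 2.21 and Hba-a1 at 2.08 (adjusted p = 9.83e-07 and 2.05e-05 by edgeR). Hba-a1 and Hba-a2 are near-identical copies, so their rows are not independent. Of the 12 other erythroid markers, 11 had a row, and these summed to 0.62 to 1.71 CPM in ON and 1.89 to 3.23 CPM in OFF. Rhag, Kel and Tspo2 were at 0 in all libraries, and no other marker exceeded 10 counts in a library. Gata1, the erythroid transcription factor, had 4, 2 and 0 counts in ON and 0 in every OFF library. Library by library the order differed between genes. Fech was highest in OFF replicate 1, where the globin sum was lowest (575 CPM). It was lowest in OFF replicate 2, where that sum was highest (929 CPM). Alas1 followed the order of the globin sum in OFF (241, 284 and 258 CPM in replicates 1 to 3, beside 575, 929 and 822 CPM). Ncoa4, Slc25a37, Blvrb and Alas2 were lowest in OFF replicate 1 and highest in OFF replicate 3. In ON, Fech stayed between 17.9 and 18.2 CPM while the globin sum ranged from 149 to 210 CPM. The part of red cell RNA in the levels of Fech, Alas1, Ncoa4 and the other genes below was not tested. Macrophage markers summed to 43.7 to 48.8 CPM in ON and 36.8 to 43.8 CPM in OFF. Vcam1 made up most of this sum in ON (38.03 to 42.03 CPM) and fell by 1.00 on the log2 scale (adjusted p = 7.65e-05 by edgeR). The sum thus mainly follows Vcam1 and does not show how the other macrophage markers changed. Of the 3 macrophage markers tested, Vcam1 was lower and the other 2 were higher in OFF. Cd5l and Spic, markers of macrophages that clear red cells, were at 0 in all libraries, whereas Adgre1 and Mrc1 rose by log2 values of 2.00 and 1.52 (adjusted p = 2.02e-04 and 0.0163 by edgeR). Of megakaryocyte markers Gp1bb alone was tested, and it rose by 0.71 (adjusted p = 2.41e-04 by edgeR). Stromal and endothelial markers (0.89 to 2.86 CPM) and lymphoid markers (1.26 to 3.74 CPM) were low in every library.

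**Figure D4:**
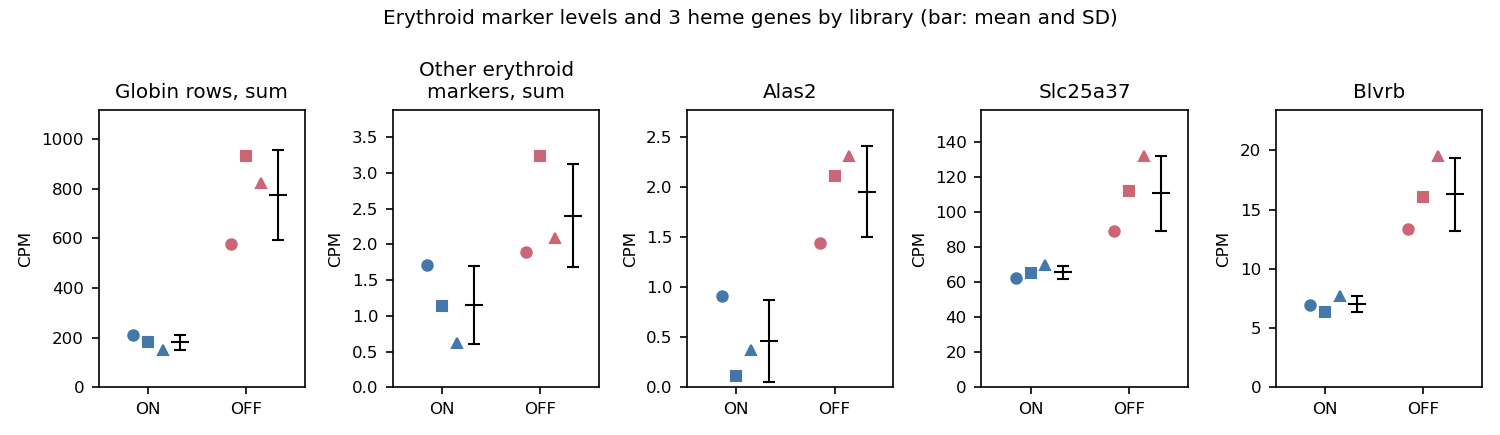
Summed level of the 4 globin rows and of the other erythroid markers, and levels of Alas2, Slc25a37 and Blvrb, in CPM by library, with mean and SD (axes from 0). The OFF libraries are above the ON libraries in every panel, but the markers other than globins stay at or below 3.23 CPM.

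Of 13 other genes of heme synthesis and its transport and control, all were tested, 2 rose, 2 fell and 9 did not pass, with a median log2 fold change of 0.12. The share that passed, 30.8%, was near the 34.8% of all tested rows. Urod, which acts midway, rose (14.6 ± 1.2 CPM in ON and 22.1 ± 1.56 CPM in OFF, mean ± SD of 3 libraries; log2 fold change 0.59, adjusted p = 0.00337). Cpox, the oxidase of the step after Urod, fell (17.4 ± 1.65 CPM in ON and 10.4 ± 1.12 CPM in OFF, mean ± SD of 3 libraries; log2 fold change -0.74, adjusted p = 0.00161). Alas2, the erythroid counterpart of Alas1, had 8, 1 and 3 counts in ON and 13, 19 and 21 counts in OFF (edgeR log2 fold change 2.03 with SE 0.51, adjusted p = 0.00642). All its ON counts were under the filter's minimum of 10, so it was kept through OFF alone, the group where it is high. Its call, 1 of the 2 that rose, carries that limit. With 1 library left out the log2 fold change of Alas2 ranged from 1.57 (without ON replicate 2) to 2.97 (without ON replicate 1). Alas2 also holds an exact element in its 5' UTR.

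Clpp, the largest fall of that list, is the proteolytic subunit of a mitochondrial protease that acts on ALAS proteins among many others. It fell (22.1 ± 1.77 CPM in ON and 9.97 ± 2.04 CPM in OFF, mean ± SD of 3 libraries; log2 fold change -1.15, adjusted p = 8.75e-05), whereas its partner Clpx gave -0.25 without passing (adjusted p = 0.262). Alad, which acts directly after the ALAS step, gave -0.20 without passing (adjusted p = 0.565 by edgeR). Uros and Ppox gave 0.69 and 0.32 without passing (adjusted p = 0.105 and 0.108). The membrane transporters Tmem14c, Abcb6, Abcb10 and Slc25a38 lay between -0.08 and 0.35, and none passed. The sign of Abcb6 changed on leaving out 1 library (-0.01 without OFF replicate 3).

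Among 22 further genes of iron uptake and release, 11 were tested, 3 rose and none of those tested fell by edgeR, with a median of 0.00. Slc39a14 of this list, named after its values were seen, was left untested by the filter on low counts. It had 8, 16 and 13 counts in ON and 1, 2 and 3 counts in OFF. The share called was 27.3%, below the 34.8% of all tested rows. At an unadjusted p under 0.05 the number lower was also 0. At an adjusted p under 0.05, the number lower was 1 by DESeq2 and with no filter on low counts. It was also 1 without ON replicate 1, OFF replicate 2 or OFF replicate 3, and 2 without OFF replicate 1. Hfe, a partner of transferrin receptors in iron sensing, rose (2.85 ± 0.34 CPM in ON and 6.87 ± 0.51 CPM in OFF, mean ± SD of 3 libraries; log2 fold change 1.26, adjusted p = 6.02e-04). Slc40a1, or ferroportin, is the exporter of iron and was named after its values were seen. It gave 23.98, 23.2 and 19.97 CPM in ON, against 31.1, 47.2 and 54.1 CPM in OFF. The groups did not overlap, and OFF replicate 1 lay nearest to ON (edgeR log2 fold change 0.98 with SE 0.18, adjusted p = 0.001). Its 5' UTR holds an exact element, shown for comparison with those of ferritin.
Slc40a1 5' UTR, chr1:45925464-45925493, minus strand: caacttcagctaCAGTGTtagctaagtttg
Lcn2, a siderophore-binding protein of neutrophil granules, rose by 0.42 (adjusted p = 0.0128), which no longer passed without OFF replicate 2 (0.0719) and likewise without ON replicate 2 (0.0896) or ON replicate 3 (0.0527). Snx3, which recycles the transferrin receptor, gave -0.09 (adjusted p = 0.581).

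Of 19 genes of iron storage, iron chaperones and regulators, 16 were tested, 2 rose and 5 fell, with a median of -0.10. These calls are 43.8% of the list, beside 34.8% of all tested rows. The count that fell was 2 without ON replicate 2 and 2 without OFF replicate 2. Bach1, a heme-sensing repressor of Hmox1 and ferritin genes, rose (21.2 ± 2.78 CPM in ON and 31.3 ± 1.99 CPM in OFF, mean ± SD of 3 libraries; log2 fold change 0.56, adjusted p = 0.00403). Atg7, needed for autophagosome formation, rose by 0.73 (adjusted p = 0.00209). Fbxl5, the iron-sensing ligase subunit that targets IREB2 for degradation, fell (40.4 ± 2.75 CPM in ON and 30.7 ± 2.2 CPM in OFF, mean ± SD of 3 libraries; log2 fold change -0.39, adjusted p = 0.0159), which no longer passed without ON replicate 2 (0.0966) or OFF replicate 2 (0.0545). The RNA-decay factors Zfp36l1 and Zfp36 changed by -1.37 and -0.56 (adjusted p = 2.21e-05 and 0.0119 by edgeR), and the second call was lost without ON replicate 2 (0.0635). Mtf1, a metal-responsive factor, and Hif1a, a hypoxia factor, changed by -0.40 and -0.45. These 2 calls (adjusted p = 0.0115 and 0.0103) were lost without OFF replicate 2 (0.0541 and 0.0603), that of Mtf1 also without ON replicate 2 (0.0626) and that of Hif1a without ON replicate 3 (0.0581). The iron chaperones Pcbp1 and Pcbp2 gave -0.25 and -0.06 without passing (adjusted p = 0.0593 and 0.701). Pcbp1 passed without OFF replicate 3 (0.0085). Bach1, Zfp36, Fbxl5, Mtf1 and Hif1a were named after their values were seen, to account for the counts.

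Of 32 genes of mitochondrial iron import and iron-sulphur cluster assembly, all were tested, 3 rose and 6 fell, with a median of -0.16. That is 28.1% called, against 34.8% of all tested rows. Slc25a37 (mitoferrin 1), which imports iron for heme and is abundant in erythroid cells, rose (65.6 ± 3.67 CPM in ON and 111 ± 21.3 CPM in OFF, mean ± SD of 3 libraries; log2 fold change 0.75, adjusted p = 5.67e-04). Its relative Slc25a28 gave -0.12 without passing (adjusted p = 0.62). Glrx5, a glutaredoxin that carries newly made clusters, gave 55.96, 49.9 and 51.2 CPM in ON, against 32.1, 27.7 and 31.5 CPM in OFF. The groups were far apart (edgeR log2 fold change -0.78 with SE 0.11, adjusted p = 1.24e-04). Named after their values were seen, the glutaredoxin Glrx3 (-0.65), the cluster transfer factor Bola3 (-0.63) and the ferredoxin Fdx1l (-0.69) also fell (adjusted p = 6.24e-04, 0.00185 and 0.00574 by edgeR). Isca1 and Nubp2 changed by -0.47 and -0.37 (adjusted p = 0.0266 and 0.0459 by edgeR). The call of Isca1 failed on leaving out OFF replicate 2 or either of ON replicates 2 and 3 (0.0708 to 0.141), and that of Nubp2 without any of the libraries except OFF replicate 3 (0.0574 to 0.207). By DESeq2 neither passed (0.0817 and 0.0764), and Nubp2, whose groups overlapped, also failed with library totals only (0.0783), with a minimum of 10 CPM in 3 libraries (0.0602), without the ribosomal RNA locus (0.053), with the replicate block (0.0589) and in the authors' deposited log2 table (0.134). Hscb and Nfu1 rose by 0.69 and 0.41 (adjusted p = 0.0402 and 0.0206), Nfu1 losing its call without ON replicate 2 or 3 (0.101 and 0.0997) and Hscb without any library except OFF replicate 1 (0.0711 to 0.15). Hscb also did not pass by DESeq2 (0.106), limma-voom (0.0618) or in the authors' deposited log2 table (0.0949). Without ON replicate 2 or 3, 1 gene of the list rose. Bola2 gave -0.02 without passing (adjusted p = 0.916), a value that was 0.01 with a minimum of 10 CPM in 3 libraries and 0.00 without the ribosomal RNA locus.

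Of 12 genes of heme transport and breakdown, 9 were tested, 1 rose and 2 fell, with a median of 0.21. With 33.3% called, the list was near the 34.8% of all tested rows. The number that rose was 2 without OFF replicate 2 and 3 with no filter on low counts, and the number that fell was 1 without ON replicate 1 or OFF replicate 2. Blvrb, a biliverdin reductase acting after heme oxygenase, rose (7.01 ± 0.66 CPM in ON and 16.3 ± 3.08 CPM in OFF, mean ± SD of 3 libraries; log2 fold change 1.22, adjusted p = 1.23e-04). It is abundant in red cells, and the part of red cell RNA in its rise was not tested. Pgrmc2, an intracellular heme chaperone, changed by -0.51 and Abcg2, an exporter of porphyrins, by -0.61 (adjusted p = 0.00578 and 0.0142 by edgeR). The call of Abcg2, named after its values were seen, was lost without ON replicate 1 (0.0941) or OFF replicate 2 (0.0561). Slc48a1, a heme importer of endosomes and lysosomes, gave 0.44 without passing (adjusted p = 0.0725) but passed without OFF replicate 2 (0.0211), when low counts were not filtered (0.00426) and with a minimum of 10 CPM in 3 libraries (0.0485). Without OFF replicate 3 its log2 fold change was 0.19 (adjusted p = 0.166).

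**Figure D5:**
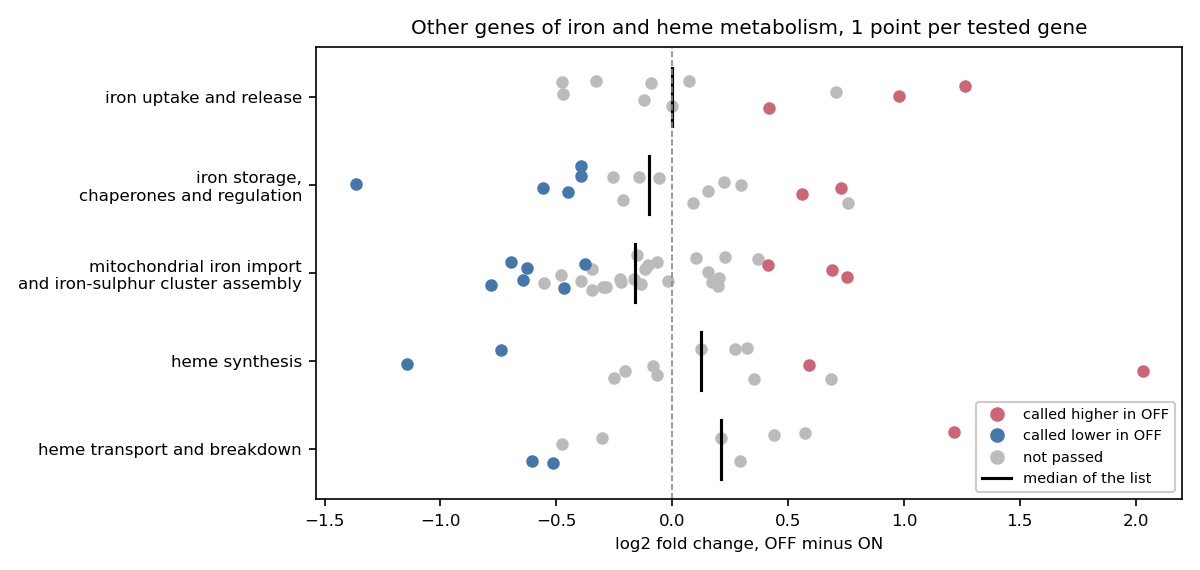
Log2 fold change (OFF minus ON, horizontal axis) of every tested gene in 5 lists of iron and heme metabolism that exclude the 10 members, red where higher and blue where lower at an adjusted p under 0.05, with each list's median as a black line. Of 81 tested genes 11 were higher and 15 lower (32.1% called, against 34.8% of all tested rows), and the medians lie between -0.16 and 0.21.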

How the data were processed

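Sorted leukaemic cells were profiled from mRNA 3' ends (QuantSeq, Lexogen), per the labels' protocols, with the sort markers not stated. The 6 libraries are 3 ON and 3 OFF by their titles, which number replicates and name no mouse. Per the submitters' processing notes, the build was mm10 and the tools included featureCounts (Subread 1.6.3), HISAT2 2.0.4, limma 3.42.2 in R 3.6.1, and cutadapt 1.9.1. Which annotation, strand setting and multi-mapping rule were used is not stated. Raw counts deposited by the authors filled 54838 rows; 1105 without a name (0.145% to 0.172% of counts) were left out. The authors' deposited log2 table was used only as an alternative.

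Counts were fitted in R 4.3.3 with edgeR 4.0.16: filterByExpr (minimum count 10, total 15) kept 13652 rows, scaling was by TMM, and glmQLFit with robust dispersion and glmQLFTest compared OFF with ON without covariates. Benjamini-Hochberg adjustment covered every tested row (threshold 0.05). The absolute log2 fold change over the root of F gave the SE. CPM use TMM-scaled library sizes. The fit was tested on simulated data. Alternatives used limma 3.58.1 and DESeq2 1.42.0, other scalings and filters, a replicate block and leaving out each library. Each library was taken to come from its own mouse, and all mice received 1 line. Intervals cover no PCR duplicates, as no molecular identifiers are stated.

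The members and lists were chosen with earlier results of these data known. All members are named; so are, of each list, the called gene with the smallest p in each direction and the 2 with the highest mean CPM, and all heme synthesis genes except 1 that is counted in its list but not reported here. Tested cluster assembly genes past 2-fold may be named. Sequences are from GENCODE M21 (GRCm38).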

Additional observations from a re-analysis of the deposited data

How the results depend on the processing

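The count of members higher in OFF was 4 in every setting except without ON replicate 2 or 3 (3 each, Ftl1 being lost). The count of lower members, 2, rests on Tfrc and Slc11a2: it was 1 with library totals only, with DESeq2 and with a minimum of 10 CPM in 3 libraries (which left Slc11a2 untested), 0 in the deposited log2 table, and between 1 and 3 with 1 library left out. Members higher ranged over 3 to 4, all called rows over 3293 to 5444, and the pathway lists over 8 to 12 higher and 10 to 19 lower on leaving out each library. By DESeq2 the pathway lists gave 10 higher and 14 lower. Changes of sign occurred for values smaller in size than their SE, among them Hmox1 (0.16, SE 0.41) and Abcb6 (0.27, SE 0.35). Hmox1 was -0.14 without ON replicate 2 and -0.04 without OFF replicate 2, and Abcb6 was -0.00683 without OFF replicate 3. Ireb2 was 0.0368 without OFF replicate 3, and Pcbp2 was 0.00434 in the deposited log2 table. Bola2 was 0.0082 with a minimum of 10 CPM in 3 libraries, 3.44e-04 without the ribosomal RNA locus and 0.0327 in the deposited log2 table. Bola2 was also 0.0534 without ON replicate 1 and 0.0113 without OFF replicate 2. With 1 library left out these values spanned -0.14 to 0.04 for Ireb2, -0.14 to 0.62 for Hmox1, -0.0706 to 0.0534 for Bola2 and -0.01 to 0.46 for Abcb6. The cause was not tested.

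Replicate numbers are shared by the groups, but same-numbered libraries did not deviate together (correlations of 0.03, -0.08 and -0.05 over 13652 rows across genes). With the replicate number as a block, 4403 rows were called against 4746, the members gave 4 higher and 2 lower, and the pathway lists 11 higher and 14 lower, Nubp2 losing its call (0.0589). At these depths Slc11a1, with 3 to 9 counts, and Hmox1, with 7 to 20, were limited by counting.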
